A study of Mus musculus with 24 samples.

Results

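The RNAs described here are the 183 genes that the authors' whole-cell table of mouse NIH3T3 fibroblasts annotates with the biotype antisense, out of 13534 genes in that table. Each gene was taken once, and of 184 genes with that biotype 1 snoRNA host, Snhg9, was left out by the rule. Of the 183 genes, 56 were also among the 11568 genes of the table for nuclear and cytoplasmic fractions. The selection used the annotation only and no measured value. An antisense gene in this sense is one whose transcript runs against an annotated gene, or starts beside it on the other strand, and has no known protein. In the RefSeq gene table of GRCm38.p6, 118 of the 183 could be found, 82 by symbol and 36 by an older name. There 2 of them are protein-coding genes, 2010003O02Rik as Smim27 and 5430417L22Rik as Inafm2, so the label antisense does not hold for these in RefSeq.

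NIH3T3 is an established line of mouse embryonic fibroblasts. The cells were transfected with a miR-29b mimic or a scrambled control mimic at 10 nM, both carrying CNVK (3-cyanovinylcarbazole), a nucleoside that light crosslinks to the opposite strand. Medium was added after 24 h, and harvest followed 8 h later. There were 16 whole-cell libraries, 4 for each mimic before the pulldown (the inputs) and 4 for each after it (the pulldowns), where the pulldown captures the mimic with the RNA bound to it. Libraries were primed with random hexamers and oligo-dT, mostly from 5 ng of RNA. Another 8 libraries held nuclear or cytoplasmic RNA, with 1 library for each mimic, fraction and step. All groups share the cell line and the transfection, and the control is the scrambled mimic rather than untreated cells. The sources used here do not say that libraries of a group came from separate cultures, so the p-values measure the spread between libraries, which may be technical. In the headers of the authors' table replicates 1 to 3 are lysed and replicate 4 is intact.

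Antisense RNAs are transcribed from the strand opposite another gene. Some act at their own locus, by transcription across the sense promoter or by recruiting chromatin modifiers, and others are precursors of microRNAs or have no known role. A microRNA finds its targets mostly through bases 2 to 8 from its 5′ end, the seed, which pairs with sites that are best studied in the untranslated ends of mRNAs in the cytoplasm. MiR-29b is known in fibroblasts for targeting collagens and other matrix mRNAs. The sequence of its mature strand is shown because it defines what the mimic can capture, beside the family members miR-29a and miR-29c. Sequences are from RefSeq, 5′ to 3′, with the seed in capitals, and all 3 share it. Per the labels the mimic carries a modified nucleoside, whose position is not given there.
mmu-miR-29b-3p: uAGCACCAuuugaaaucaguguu
mmu-miR-29a-3p: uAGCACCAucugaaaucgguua
mmu-miR-29c-3p: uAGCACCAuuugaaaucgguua

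Listed counts per whole-cell library ranged from 7409157 in scrambled pulldown replicate 1 to 55153996 in miR-29b input replicate 4. Fibroblast markers were present, with 8 of 8 listed and a summed level of 4468 to 7486 CPM in the inputs, while none of 3 endothelial markers was listed and the listed epithelial, leukocyte, muscle and neural markers, 1 of each set, summed to at most 4.07 CPM. The 3 adipocyte markers summed to 91.3 to 259 CPM. CPM here are counts scaled to library sizes corrected by edgeR's TMM factors. The pulldown enriched known miR-29 targets, with Mcl1 at a log2 change of 4.19 ± 0.56 SE and Col1a1 at 2.74 ± 0.70 SE in the mimic-specific comparison (edgeR adjusted p = 6.58e-05 and 0.00878). Where replicates 1 and 2 of the miR-29b pulldown differed over 2-fold, which they did for 27 tested antisense RNAs, the value of replicate 3 fell between them for 24. Whether replicate 3 is independent of replicates 1 and 2 was not tested, and the p-values count it as a separate library. The setting of 10 libraries used below leaves replicate 3 out of every group. It also leaves out replicate 4 of the miR-29b input and of the scrambled pulldown. Replicate 4 stays in the scrambled input and the miR-29b pulldown, so lysed and intact libraries are unevenly spread over the groups compared there. Calls kept or lost in that setting cannot be told apart from this imbalance.

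Antisense RNAs were scarce. They made up 0.0349% to 0.0657% of the listed counts of a library. The median of their mean levels was 0.566 CPM, against 13.0 CPM for all genes, 0.789 CPM for lincRNAs and 16.3 CPM for protein-coding genes. Only 57 of the 183 averaged at least 1 CPM and 10 at least 10 CPM. In the pulldown libraries of the scrambled mimic 172 to 182 of the 183 had at least 1 count, but in replicate 4 of the miR-29b pulldown only 127 did. After the filter on low counts, 142 were tested and 41 were not, all of these with a mean of 0.328 CPM or less. Of those tested, 63 averaged at least 0.5 CPM in each of the 4 groups. The others rested on few reads in some group, and some of them may have passed only through a group where they were higher. The tables give no transcript length, so these levels are per library and not per length of the transcript. In bulk RNA, fewer cells with an RNA and less of it per cell cannot be told apart.

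Because the files do not say whether reads were counted by strand, reads of an antisense RNA and of the gene it overlaps cannot be told apart. Where a named RNA and its partner were called in opposite directions, both are described below.

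The first comparison asks which RNAs the miR-29b mimic captured beyond the scrambled mimic, after correction for the level in the input. It divides the enrichment over input with miR-29b by that with the scrambled mimic. Of the 142 antisense RNAs tested, 8 were higher and 4 lower (edgeR's quasi-likelihood test, adjusted p under 0.05 over 12915 genes), 5.63% and 2.82%. Over all genes tested the shares were 17% higher and 9.21% lower. The median log2 change was −0.40 for the antisense RNAs and −0.10 for all genes. LincRNAs had 19 higher and 9 lower of 219, and processed transcripts 7 and 8 of 144. Called shares of antisense RNAs thus lay under those of all genes in both directions, as did their levels. Upper-quartile scaling, which moves the median of all genes to −0.39, gave 8 higher and 12 lower, with 12.9% and 18.6% of all genes. The authors' library totals, which move it to 0.21, gave 10 and 3, with 19.2% and 2.2% of all genes. With the replicate number as a block there were 10 higher and 10 lower, with 20.1% and 15% of all genes. Within replicates 1 to 3 there were 14 higher and 16 lower of 134, where calls over all genes were also more frequent, at 24.4% and 19.1%. With 10 libraries, leaving out replicate 3 of every group, miR-29b input replicate 4 and scrambled pulldown replicate 4, there were 3 higher and 2 lower of 151, with 9.76% and 1.38% of all genes. Leaving out miR-29b input replicate 4 gave 13 higher, with 21% of all genes. For the lower calls, leaving out miR-29b pulldown replicate 4 gave 14, with 11.1% of all genes. Leaving out scrambled input replicate 4 gave 8, with 10% of all genes. Leaving out miR-29b input replicate 1 or 3 or scrambled pulldown replicate 4 left 2, with 6.15% to 6.9% of all genes.

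**Figure D1:**
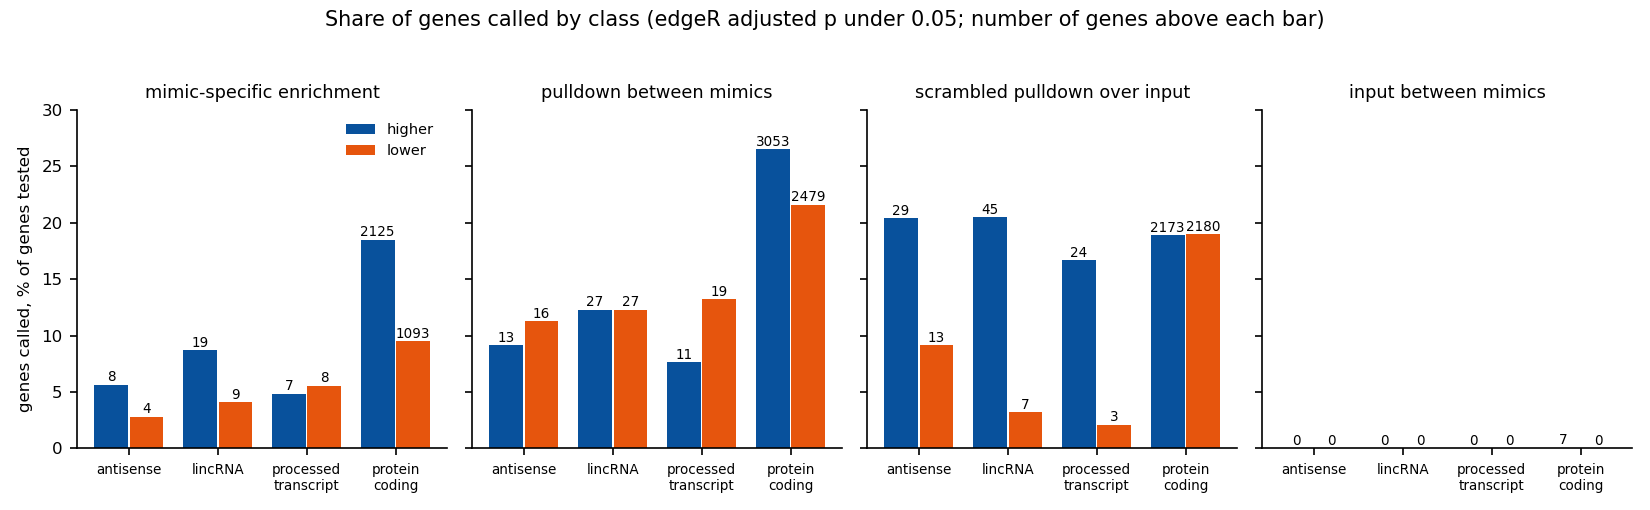
Bars show the percentage of genes tested that were higher (blue) or lower (orange) at an edgeR adjusted p under 0.05, by annotated class and comparison, with the number of genes above each bar. Antisense RNAs had 8 higher and 4 lower in the mimic-specific comparison and 29 higher and 13 lower between scrambled pulldown and input, and none differed between the inputs.

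The 3 antisense RNAs whose rise with miR-29b also passed with the 10 libraries were Rab10os, Zfp335os and Gm26982, the 3 that the authors' table marks as hits. Rab10os (listed as 1700012B15Rik, ENSMUSG00000079179; chromosome 12, 3235791 to 3250374, GRCm38) runs opposite Rab10, the gene of a small GTPase of vesicle transport, and overlaps it. It stood at 38.3, 48.3, 42.1 and 64.5 CPM in replicates 1 to 4 of the miR-29b pulldown and at 6.68, 7.90, 7.86 and 8.5 CPM in the scrambled pulldown. The inputs held 6.40, 5.10, 5.61 and 19.7 CPM with miR-29b and 7.71, 5.52, 7.26 and 8.33 CPM with the scrambled mimic. All 4 miR-29b pulldown libraries thus lay above the other 12, of which replicate 4 of the miR-29b input was the highest. The enrichment was 4.83-fold (log2 2.27 ± 0.50 SE, with 4 libraries in each group, edgeR adjusted p = 0.00308), and without that input library the log2 change was 3.05.

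Zfp335os (listed as Gm11458, ENSMUSG00000085436; chromosome 2, 164911433 to 164919954, GRCm38) overlaps Zfp335, which encodes a zinc finger regulator of transcription. Its levels in the miR-29b pulldown were 3.42, 8.37, 5.89 and 8.49 CPM, against 0.545, 0.780, 0.902 and 0.620 CPM in the scrambled pulldown. The miR-29b inputs held 0.509, 0.539, 0.668 and 2.46 CPM, and the scrambled inputs 0.955, 0.730, 0.697 and 1.33 CPM. The pulldown groups did not overlap, and replicate 4 of the miR-29b input again stood above the other inputs. Zfp335os was enriched 7.69-fold (log2 2.94 ± 0.67 SE, edgeR adjusted p = 0.00413). Without miR-29b input replicate 4 the log2 change was 3.93.

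Gm26982 (ENSMUSG00000097994), which has no entry in the RefSeq table, had the largest log2 change, over all 16 libraries, of the 8 that rose. The miR-29b pulldown held 6.98, 16.4, 11.8 and 6.53 CPM, and the scrambled pulldown 1.91, 1.05, 0.773 and 1.27 CPM. The inputs ranged from 0.848 to 3.05 CPM with miR-29b and from 1.11 to 2.04 CPM with the scrambled mimic. Every miR-29b pulldown library lay above every other library. The enrichment was 8.39-fold (log2 3.07 ± 0.59 SE, edgeR adjusted p = 0.00121). Its log2 change was 3.73 when replicate 4 of the miR-29b input was left out, below the 3.93 of Zfp335os.

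A930015D03Rik, a long locus on chromosome 17 (35994504 to 36038174, GRCm38) that spans the MHC class I genes H2-T22, H2-T23 and H2-T24, was also higher. It stood at 82.4, 88.4, 86.9 and 47.3 CPM in the miR-29b pulldown and at 26.5, 18.3, 20.5 and 19.8 CPM in the scrambled pulldown. In the inputs replicates 1 to 3 held 32.8 to 36.2 CPM with miR-29b and 41.2 to 45.3 CPM with the scrambled mimic, and replicate 4 held 17.4 and 7.93 CPM. Replicate 4 was the lowest of its group in both inputs and in the miR-29b pulldown. The enrichment was 4.11-fold (log2 2.04 ± 0.56 SE, edgeR adjusted p = 0.0136). Genes of this family are similar in sequence, so how reads were shared among them is uncertain.

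Brip1os (listed as 4632419I22Rik), named after the DNA helicase gene Brip1 but spanning Ints2 and Med13 in the RefSeq table (chromosome 11, 86201360 to 86304443), went both ways. In the miR-29b pulldown it held 41.8, 71.0, 55.0 and 38.2 CPM, above its inputs at 25.5 to 29.4 CPM, and in the scrambled pulldown 14.5, 22.4, 20.1 and 17.1 CPM, below its inputs at 24.6 to 29.7 CPM. Neither pulldown overlapped with its own input or with the other pulldown, while the inputs overlapped with each other. Its enrichment was 2.75-fold (log2 1.46 ± 0.26 SE, edgeR adjusted p = 0.000714), and the part below input with the scrambled mimic was −0.57 ± 0.18 SE (edgeR adjusted p = 0.0247), which did not pass without scrambled pulldown replicate 4 (log2 −0.53, edgeR adjusted p = 0.0707), with the authors' library totals (edgeR adjusted p = 0.126) or with the 10 libraries (edgeR adjusted p = 0.307).

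Emx2os, which starts beside the homeobox gene Emx2, and Gm16536 rose less. Emx2os stood at 4.18, 6.59, 5.37 and 6.19 CPM in the miR-29b pulldown and 2.86, 2.51, 2.32 and 3.36 CPM in the scrambled one, an enrichment of 2.49-fold (log2 1.32 ± 0.36 SE, edgeR adjusted p = 0.0127). Gm16536 stood at 7.36, 16.1, 11.6 and 7.58 CPM against 2.59, 3.94, 4.38 and 4.26 CPM, 2.45-fold (edgeR adjusted p = 0.0192). Neither RNA overlapped between the pulldowns. Gm11772, which overlaps Bahcc1, the gene of a chromatin protein, differed from these in that its scrambled pulldown was low. Its levels were 0.950, 0.509, 0.647 and 0.497 CPM in the miR-29b pulldown, against 0.273, 0.170, 0.354 and 0.181 CPM in the scrambled pulldown, and 0.401 to 1.53 CPM in the scrambled input. The log2 change of 2.33 ± 0.71 SE (edgeR adjusted p = 0.0242) did not pass without scrambled pulldown replicate 2 or 4 (edgeR adjusted p up to 0.0585).

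Gm15564 was lower with miR-29b, and had the larger fall of the 2 lower calls that also passed with the 10 libraries. It lies on chromosome 16 (ENSMUSG00000086324; 35966751 to 35983329, GRCm38), where its span overlaps Parp9, a gene of the ADP-ribosyltransferase family, and Kpna1, which encodes a nuclear import receptor. The scrambled pulldown held 68.2, 180, 177 and 235 CPM, and the miR-29b pulldown 21.0, 7.24, 14.5 and 19.6 CPM. The inputs held 39.9 to 68.3 CPM with miR-29b and 46.1 to 69.2 CPM with the scrambled mimic, between the pulldowns except for scrambled pulldown replicate 1. The libraries of the pulldowns did not overlap, and relative to input it rose with the scrambled mimic (log2 1.56 ± 0.35 SE, edgeR adjusted p = 0.00295), though not with the 10 libraries (log2 1.12, edgeR adjusted p = 0.179). The mimic-specific change was 9.75-fold downward (log2 −3.29 ± 0.50 SE, edgeR adjusted p = 0.000208).

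Sp3os (listed as 1700011J10Rik, ENSMUSG00000063714; chromosome 2, 72979432 to 72989249), which overlaps the zinc finger transcription factor gene Sp3, showed the same order on a smaller scale. It held 7.98, 7.31, 7.81 and 10.9 CPM in the miR-29b pulldown, against 23.7, 21.8, 21.0 and 23.1 CPM in the scrambled pulldown, and 12.6 to 18.9 CPM in the inputs. The 3 kinds of sample were separate. The mimic-specific change was −1.54 ± 0.22 SE (edgeR adjusted p = 0.00011), and Sp3os was 1.65-fold above input with the scrambled mimic (edgeR adjusted p = 0.00204, but 0.0692 with the 10 libraries).

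The other 2 lower calls were weak ones. Gm20522, which overlaps Gpank1, a gene of a G patch and ankyrin repeat protein, stood at 0.522, 0.582, 0.455 and 0.187 CPM in the miR-29b pulldown and 1.09, 0.984, 0.837 and 1.06 CPM in the scrambled one. These groups did not overlap. Its log2 change of −1.48 ± 0.48 SE (edgeR adjusted p = 0.034) did not pass when any of replicates 1 to 3 of either input, replicate 3 of the miR-29b pulldown or replicate 2 or 4 of the scrambled pulldown was left out (edgeR adjusted p up to 0.0828). Gm17035 had 110 counts over all 16 libraries, levels of 0.00 to 0.216 CPM in the miR-29b pulldown and 0.204 to 0.723 CPM in the scrambled one, and overlapping groups. Its log2 change of −3.84 ± 1.19 SE (edgeR adjusted p = 0.0255) did not pass without miR-29b input replicate 1 or 3 or scrambled pulldown replicate 4 (edgeR adjusted p up to 0.07), and was −4.54 without miR-29b pulldown replicate 3.

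The pulldown groups did not overlap for 11 of these 12 RNAs. Because the RNAs were picked as calls from the same libraries, the separation follows in part from that choice and is no further support. With the 10 libraries 5 of these 12 mimic-specific calls were kept, namely Rab10os, Zfp335os, Gm26982, Gm15564 and Sp3os, and the other 7 kept their direction (edgeR adjusted p = 0.0798 to 0.331). All 12 passed within replicates 1 to 3, where 24.4% of all genes were higher and 19.1% lower. That setting counts replicate 3 as a separate library, whose independence was not tested, so it adds no independent support.

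**Figure D2:**
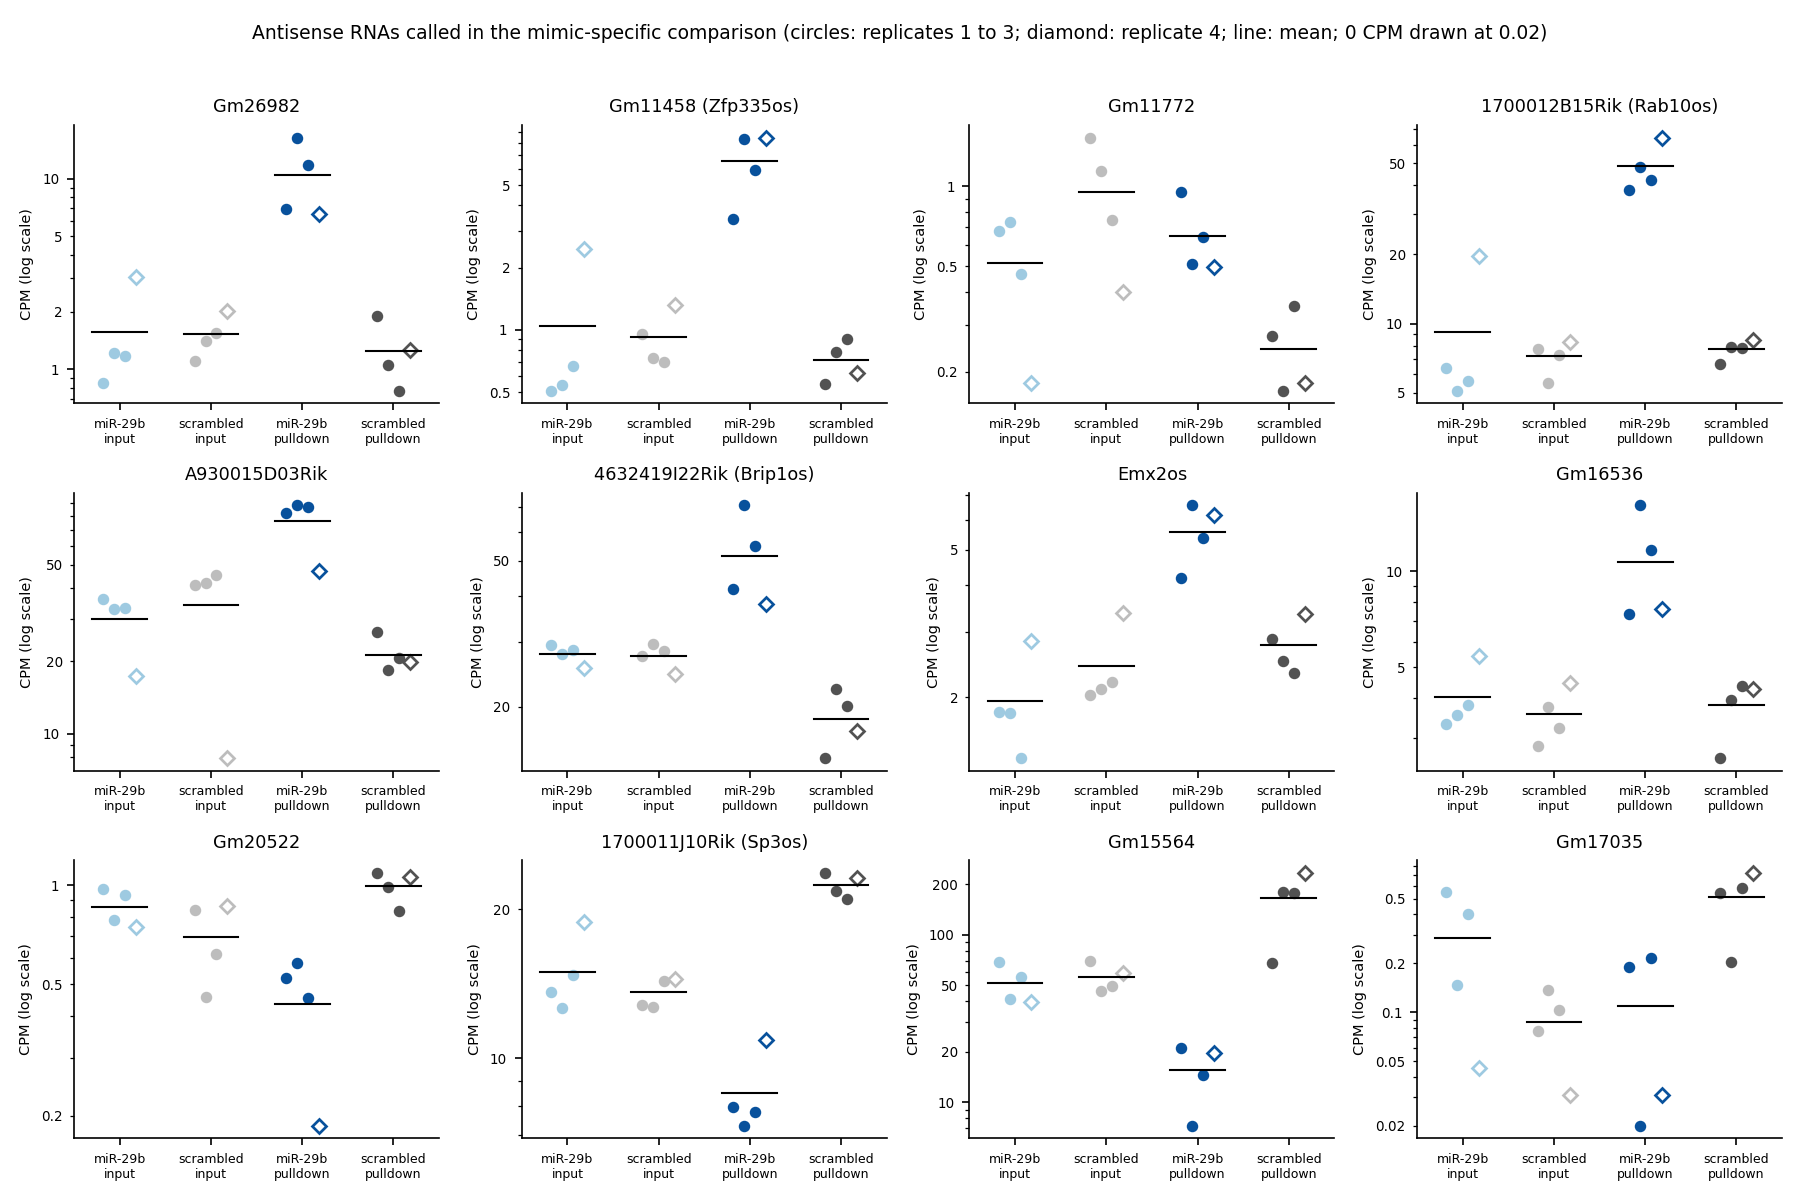
Each panel shows the level of 1 antisense RNA in CPM on a log scale in the 4 whole-cell groups, with circles for replicates 1 to 3, a diamond for replicate 4 and a line at the mean of 4. Rab10os, Zfp335os and Gm26982 stand out in the miR-29b pulldown, and Gm15564 and Sp3os lie below both inputs there and above them in the scrambled pulldown, except that scrambled pulldown replicate 1 of Gm15564, at 68.2 CPM, falls within the range of the inputs.

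The second comparison set the pulldowns directly against each other, without correction for input, and so shares those libraries with the first. Here 13 of the 142 antisense RNAs were higher with miR-29b and 16 lower, 9.15% and 11.3%, against 24.5% and 20.9% of all genes tested. The median log2 change was −0.31, with −0.10 for all genes, and with the authors' library totals it was 0.03, with 0.23 for all genes. Over the 41 RNAs that pass a filter of 2 CPM it was 0.03, with −0.05 for all genes under that filter. With upper-quartile scaling the split was 11 higher and 31 lower, with 19.1% and 33.6% of all genes, and with the authors' library totals it was 15 and 4, with 29.5% and 8.46% of all genes, so the split moved with the scaling for antisense RNAs and for all genes. Within replicates 1 to 3 there were 17 higher and 32 lower of 134, with 29.5% of all genes in each direction. The 10 libraries gave 6 and 2 of 151, with 16% and 7.32% of all genes. Leaving out scrambled pulldown replicate 4, 1 or 3 left 6, 7 or 10 lower, leaving out miR-29b pulldown replicate 3 or 2 left 8 or 9, leaving out scrambled input replicate 3 or 1 left 9 or 10, and leaving out miR-29b input replicate 1 or 3 left 10. In these fits 17.4% to 19.2% of all genes were lower.

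Besides the 8 RNAs above, the rule named 3 others that were higher in the miR-29b pulldown. For 6330562C20Rik the values were 1.66, 2.11, 2.61 and 3.33 CPM against 0.545, 0.339, 0.483 and 0.620 CPM (4.90-fold, edgeR adjusted p = 0.00117). Rbm3os (listed as 2900002K06Rik), which overlaps the gene of the cold-inducible RNA-binding protein Rbm3, held 1.90, 2.77, 2.13 and 5.35 CPM against 0.273, 0.916, 0.902 and 0.542 CPM (4.35-fold, edgeR adjusted p = 0.00835). Vax2os, which overlaps the homeobox gene Vax2, held 1.04, 2.84, 2.54 and 1.65 CPM against 0.955, 0.204, 0.354 and 0.439 CPM (4.66-fold, edgeR adjusted p = 0.0193). None of the 3 overlapped between the pulldowns, as was so for 25 of the 29 antisense RNAs called in this comparison. Since they were named as called changes between these libraries, the separation follows in part from that choice and is no further support. The call of Vax2os was lost without replicate 2 of either pulldown or replicate 3 or 4 of the scrambled one (edgeR adjusted p up to 0.0659). With the 10 libraries 8 of the 21 calls of named RNAs in this comparison passed, those of Rab10os, Zfp335os, Gm26982, Brip1os, Gm16536, 6330562C20Rik, Gm15564 and Sp3os. Rbm3os and Vax2os were among the 13 that did not (edgeR adjusted p = 0.0659 and 0.166).

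Among those lower with miR-29b was Gm16263, at 2.71, 3.20, 3.14 and 2.21 CPM against 4.23, 6.31, 5.57 and 6.30 CPM (2.00-fold, edgeR adjusted p = 0.0091). Its groups did not overlap and the call held without any 1 library, but not with the authors' library totals (log2 −0.72, edgeR adjusted p = 0.0804) or the 10 libraries (edgeR adjusted p = 0.164). Gm15708, which overlaps the actin regulator gene Baiap2l1, had a log2 change of −1.40 ± 0.47 SE (edgeR adjusted p = 0.023), lost without miR-29b pulldown replicate 3 or 4 or scrambled pulldown replicate 1 (edgeR adjusted p up to 0.0713). Gm20628 held 0.00, 0.255, 0.0958 and 1.12 CPM against 1.36, 2.14, 1.67 and 1.76 CPM, and its value turned on 1 library, with a log2 change of −2.21 over all libraries (edgeR adjusted p = 0.0357) and −3.81 without miR-29b pulldown replicate 4. It was lost without 11 of the 16 libraries (edgeR adjusted p up to 0.0968), namely replicate 2 or 3 of either input, replicates 1 to 3 of the miR-29b pulldown and every replicate of the scrambled pulldown. Gm20633, at 0.509 ± 0.180 CPM against 1.03 ± 0.119 CPM (SD, n = 4), was lost without 11 as well, those being any scrambled pulldown replicate, any of miR-29b input replicates 1 to 3, scrambled input replicate 1 or 2 or miR-29b pulldown replicate 1 or 3 (edgeR adjusted p up to 0.117). With the authors' library totals none of these 4 RNAs passed (edgeR adjusted p = 0.0604 to 0.182), and with the 10 libraries none did (edgeR adjusted p = 0.164 to 0.36).

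The third comparison describes what the scrambled mimic recovered, which is the background of the pulldown in these cells. The scrambled pulldown held 29 of the 142 antisense RNAs at a higher level than its input and 13 at a lower one, 20.4% and 9.15%. Of all genes tested 18.5% were higher and 17.4% lower. The median log2 change was 0.23 for antisense RNAs and 0.03 for all genes, and lincRNAs had 45 higher and 7 lower of 219. Over the 41 antisense RNAs that pass a filter of 2 CPM the median was −0.05. The share higher was thus near that of all genes. Replicates 1 to 3 alone gave 36 higher and 17 lower of 134, with 27.7% and 26.4% of all genes, and the 10 libraries gave 6 and 2 of 151, with 5.43% and 3.39% of all genes. Leaving out scrambled input replicate 1 or 2 left 17 or 18 higher, with 13.7% or 14.2% of all genes. Leaving out scrambled pulldown replicate 4 or 2 left 7 or 8 lower, with 13.5% or 14.2% of all genes.

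The RNA with the largest rise of those named was Dnm3os (ENSMUSG00000078190; chromosome 1, 162217623 to 162225550, GRCm38, plus strand), which lies inside the dynamin gene Dnm3 on the other strand and is the precursor of microRNAs. Of the 118 antisense genes with RefSeq coordinates, it alone contained annotated hairpins, those of miR-199a-2 and miR-214. Their mature strands are printed because they are the known products of this transcript, and neither shares the seed of miR-29.
mmu-miR-199a-5p: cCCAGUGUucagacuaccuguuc
mmu-miR-199a-3p: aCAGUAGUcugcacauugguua
mmu-miR-214-5p: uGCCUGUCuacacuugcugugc
mmu-miR-214-3p: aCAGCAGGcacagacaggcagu

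Dnm3os stood at 39.3, 48.9, 44.6 and 37.4 CPM in the scrambled pulldown and at 0.115, 0.183, 0.258 and 1.02 CPM in the scrambled input. The miR-29b pulldown held 31.7, 13.1, 23.5 and 58.1 CPM, and its input 0.466, 0.147, 0.267 and 13.0 CPM. Both pulldowns were thus high, their libraries overlapped, and replicate 4 was the highest library in both inputs. Scrambled pulldown over input was 103-fold (log2 6.69 ± 1.23 SE, n = 4 per group, edgeR adjusted p = 0.000659). Without scrambled input replicate 4 the log2 change was 7.75, and with the replicate number as a block it was 7.49. In the nuclear fraction, with 1 library per group, the scrambled pulldown held 408 CPM of Dnm3os and its input 405 CPM. In the cytoplasmic fraction these were 50.8 and 4.47 CPM. Inputs of both fractions, scaled apart from the whole-cell libraries, stood above every whole-cell scrambled input. The 103-fold change is thus relative to whole-cell inputs that held little Dnm3os. The reason was not tested.

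The same pattern held for 4632427E13Rik (ENSMUSG00000074024; chromosome 7, 92740706 to 92741459, GRCm38), for which no partner gene was found. Its scrambled pulldown held 32.5, 18.3, 19.1 and 17.3 CPM and its input 0.153, 0.228, 0.258 and 1.94 CPM. In the miR-29b pulldown it stood at 11.8, 6.55, 9.25 and 17.3 CPM, with an input of 0.297, 0.343, 0.367 and 4.23 CPM. Replicate 4 was again far above the other input libraries in both groups. The scrambled pulldown was 32.4-fold above input (log2 5.02 ± 0.91 SE, edgeR adjusted p = 0.000583), or 6.61 on the log2 scale without scrambled input replicate 4 and 5.65 with the replicate block. In the nuclear fraction, with 1 library per group, the scrambled pulldown held 135 CPM and its input 124 CPM. In the cytoplasmic fraction these were 45.6 and 1.51 CPM.

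Airn (ENSMUSG00000078247; chromosome 17, 12741311 to 12859884, GRCm38) is the imprinted antisense RNA whose transcription silences the receptor gene Igf2r on the paternal chromosome. Its levels were 5.45, 6.58, 4.86 and 5.42 CPM in the scrambled pulldown against 2.14, 1.92, 1.55 and 1.51 CPM in the input, and 3.89, 2.58, 3.09 and 6.68 CPM in the miR-29b pulldown against 2.33, 2.21, 2.37 and 3.53 CPM. Groups of the scrambled mimic did not overlap. Airn rose 3.14-fold over input there (log2 1.65 ± 0.28 SE, edgeR adjusted p = 0.000352). In the nuclear fraction, with 1 library per group, the scrambled pulldown held 61.0 CPM and its input 76.2 CPM. In the cytoplasmic fraction these were 6.70 and 2.85 CPM.

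Of the other RNAs that rose most, Phtf1os (listed as A130049A11Rik), beside the transcription factor gene Phtf1, held 1.5, 2.48, 2.48 and 2.09 CPM against 0.191, 0.228, 0.129 and 0.432 CPM (8.71-fold, edgeR adjusted p = 3.8e-05). B930036N10Rik held 2.59, 1.87, 1.77 and 1.19 CPM against 0.0382, 0.00, 0.181 and 0.0925 CPM (log2 4.32 ± 1.12 SE, edgeR adjusted p = 0.00704, and 5.07 without scrambled input replicate 3). Gm20628 stood at 1.73 ± 0.318 CPM against 0.179 ± 0.117 CPM (SD, n = 4; 9.27-fold, edgeR adjusted p = 0.00911). Gm9828, which starts beside the transcription factor gene Btf3, stood at 1.27 ± 0.269 CPM against 0.335 ± 0.0624 CPM (3.67-fold, edgeR adjusted p = 0.00368). In each of these the 4 pulldown libraries lay above the 4 inputs. They were named as the largest called rises, with inputs near the floor. The separation thus follows in part from how they were chosen and is no further support. Of the 23 calls of named RNAs in this comparison 7 passed with the 10 libraries, among them Dnm3os, 4632427E13Rik, Airn, Phtf1os and B930036N10Rik, while Gm20628 and Gm9828 did not (edgeR adjusted p = 0.105 and 0.0659).

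**Figure D3:**
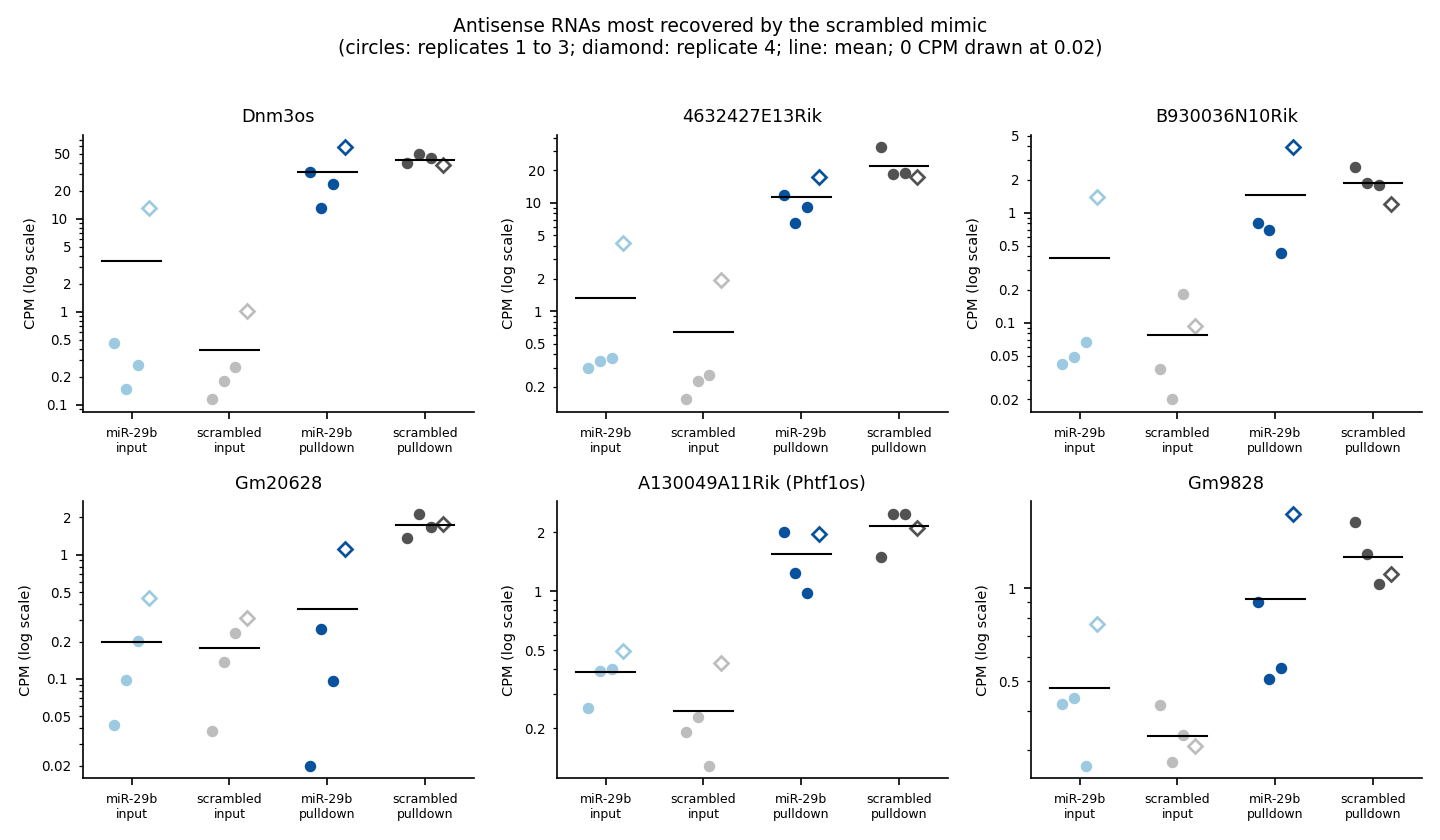
Each panel shows 1 of the 6 antisense RNAs named as most recovered by the scrambled mimic, in CPM on a log scale by whole-cell group, with circles for replicates 1 to 3, a diamond for replicate 4 and a line at the mean of 4. Dnm3os rises from 0.115 to 1.02 CPM in the scrambled input to 37.4 to 48.9 CPM in the scrambled pulldown, and replicate 4 of the miR-29b input stands at 13.0 CPM.

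Some antisense RNAs were recovered less than their input level. Inafm2 (listed as 5430417L22Rik), a protein-coding gene in RefSeq, fell from 37.4, 43.8, 38.5 and 46.1 CPM in the scrambled input to 14.6, 22.3, 21.2 and 18.7 CPM in its pulldown (2.15-fold, edgeR adjusted p = 8.62e-05). The miR-29b pulldown was much alike, at 16.9 to 25.9 CPM against 37.6 to 42.1 CPM in its input. Map2k3os (listed as Gm16516), named after a kinase gene of the p38 pathway, fell from 2.94, 1.83, 2.19 and 3.76 CPM to 1.09, 1.12, 0.934 and 1.03 CPM (log2 −1.36 ± 0.25 SE, edgeR adjusted p = 0.000686). In both RNAs the groups did not overlap. Gm13375 had a log2 change of −0.93 (edgeR adjusted p = 0.00512). With the 10 libraries Inafm2 passed, but Map2k3os and Gm13375 did not (edgeR adjusted p = 0.0895 and 0.0785). Gm12841, which overlaps the proton pump subunit gene Atp6v0b, held 1.11, 1.96, 1.47 and 0.432 CPM in the input and 0.136, 0.102, 0.258 and 0.181 CPM in the pulldown. Its log2 change was −2.79 (edgeR adjusted p = 0.0171), a call lost without scrambled pulldown replicate 2 (log2 −2.58, edgeR adjusted p = 0.0563).

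Antisense RNAs of the Hox clusters, the gene arrays that set positional identity along the body, were a group chosen after their values were seen. There were 7, all of them tested. In the scrambled pulldown 4 were below input and none above, where 17.4% and 18.5% of all genes were. In the direct comparison of pulldowns 2 were lower with miR-29b, where 20.9% of all genes were, and none was called in the mimic-specific comparison or between inputs. Of these 6 calls only that of Hoxd3os1 over input held without each single library and with the 10 libraries. Hoxd3os1 (listed as 1700109F18Rik) was at 4.62, 5.61, 5.22 and 8.48 CPM in the scrambled input and 2.05, 2.34, 2.42 and 2.22 CPM in its pulldown (2.64-fold lower, edgeR adjusted p = 0.000677), without overlap. Hoxb5os (listed as 0610040B09Rik) fell from 14.9, 17.3, 17.2 and 30.2 CPM to 7.64, 14.2, 12.5 and 11.4 CPM. That change of −0.79 ± 0.26 SE (edgeR adjusted p = 0.0284) did not pass without replicate 4 of either scrambled group or replicate 1 of the scrambled pulldown (edgeR adjusted p up to 0.12), nor within replicates 1 to 3 (edgeR adjusted p = 0.0649).

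Hotairm1 (listed as Gm15051), a transcript of the HoxA cluster known from myeloid cells, went from 2.34 ± 0.427 to 1.57 ± 0.189 CPM (SD, n = 4) and Gm15050, which overlaps Hoxa3, from 4.09 ± 1.75 to 1.74 ± 0.443 CPM (edgeR adjusted p = 0.0449 and 0.0496). Both calls stood at the threshold. Hotairm1 lost its call without scrambled input replicate 1, 2 or 3, miR-29b pulldown replicate 1 or 3 or scrambled pulldown replicate 2, 3 or 4 (edgeR adjusted p up to 0.137) and with the replicate block (edgeR adjusted p = 0.0557). Gm15050 lost it without miR-29b input replicate 2, miR-29b pulldown replicate 1, 2 or 3 or any scrambled input or scrambled pulldown replicate (edgeR adjusted p up to 0.165). Hotair, the HoxC transcript studied as a partner of Polycomb proteins, was near the floor, with 139 counts over 16 libraries. It held 0.237, 0.218, 0.216 and 0.00 CPM in the miR-29b pulldown and 1.64, 0.780, 0.290 and 0.594 CPM in the scrambled one, and its log2 change of −2.17 ± 0.81 SE (edgeR adjusted p = 0.038) was lost with the replicate block (edgeR adjusted p = 0.0503) and without any miR-29b pulldown replicate, scrambled pulldown replicate 1, 2 or 4, miR-29b input replicate 1 or 3 or scrambled input replicate 2 or 3 (edgeR adjusted p up to 0.108). Hoxb3os stood at 1.09 ± 0.293 CPM with miR-29b against 1.99 ± 0.682 CPM with the scrambled mimic (SD, n = 4, pulldowns). Its change of −0.83 ± 0.31 SE (edgeR adjusted p = 0.0389) was lost without 13 of 16 libraries, the exceptions being miR-29b input replicate 2, miR-29b pulldown replicate 4 and scrambled pulldown replicate 2 (edgeR adjusted p up to 0.146). Hoxaas3 (listed as 2700086A05Rik) was called in no comparison, at 0.212 to 0.814 CPM in the inputs and 0.542 to 2.45 CPM in the pulldowns. Nor was Zeb2os (listed as Gm13476), opposite the gene of the transcriptional repressor Zeb2, at 0.701 to 1.40 CPM in the inputs and 0.00 to 2.45 CPM in the pulldowns.

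The fraction libraries show where in the cell these RNAs were found, with 1 library per fraction and step and therefore no test. Ratios are log2 of nuclear over cytoplasmic level after TMM scaling, with a prior count of 5. Of the 56 antisense RNAs listed, 14 were at least 2-fold nuclear in both inputs and 8 at least 2-fold cytoplasmic, 25% and 14.3%, against 21.6% and 22.2% of all genes. LincRNAs had 36 and 10 of 100. Scaling by listed totals instead moves the median of all genes from 0.01 to 0.70 in the miR-29b input and to 0.56 in the scrambled input. It gave 23 nuclear and 1 cytoplasmic antisense RNA, 41.1% and 1.79%, against 36.3% and 11.2% of all genes.

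Dnm3os, 4632427E13Rik and Airn were the most nuclear. Dnm3os had 5851 nuclear and 80 cytoplasmic counts in the scrambled input and 8080 and 85 in the miR-29b input, log2 ratios of 6.37 and 6.57. For comparison, the nuclear-retained RNAs Malat1 and Neat1 had ratios of 7.0 and 6.37 in the scrambled input, and the ribosomal protein mRNA Rplp0 −3.11. The ratios of 4632427E13Rik were 5.99 and 6.13 in the scrambled and miR-29b inputs, and those of Airn 4.54 and 4.90. These 3 lay well above the next by the scrambled input, Gt(ROSA)26Sor, the transcript of the Rosa26 locus, at 3.24 and 2.70, followed by Gm16263 at 2.95 and 3.80 and Emx2os at 2.69 and 3.06. Rab10os was nuclear too, at 2.13 and 1.64, with 368 nuclear and 98 cytoplasmic counts in the scrambled input. At the cytoplasmic end stood Inafm2 at −1.80 and −1.81 and 2810408I11Rik at −1.65 and −1.57, followed in the scrambled input by A530040E14Rik at −1.54, Zeb2os at −1.50, ENSMUSG00000098927, a gene without a symbol, at −1.34 and Hoxb5os at −1.31. In the miR-29b input ENSMUSG00000098927 had the lowest ratio of the 56, at −2.3. Zeb2os had only 5 nuclear counts.

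The nuclear ratio was then set beside the recovery by the scrambled mimic in whole cells. Of the 14 nuclear antisense RNAs 7 were higher in the scrambled pulldown than in its whole-cell input and none lower, and of the 8 cytoplasmic ones none was higher and 5 were lower. The median log2 changes were 0.90 and −0.78. Gt(ROSA)26Sor, Emx2os and Rab10os were nuclear with log2 changes of 0.08, 0.19 and 0.11 that did not pass (edgeR adjusted p = 0.901, 0.6 and 0.838). Sp3os and Gm15564 were higher in the scrambled pulldown with ratios of −0.86 and −0.01 in the scrambled input. Across the 56 RNAs the nuclear ratio of the scrambled input and the change in the scrambled pulldown had Pearson's r = 0.76 and Spearman's rho = 0.64. Without Dnm3os, 4632427E13Rik and Airn these were 0.52 and 0.58 over 53. Over 11535 genes of all kinds the values were 0.59 and 0.61, and 50.7% of the nuclear genes were higher and 43.2% of the cytoplasmic ones lower, so the same relation was seen across genes of all kinds. The points of each axis come from the same few libraries and are not independent, and no test was made.

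In the whole-cell miR-29b input, replicate 4 was above replicates 1 to 3 for all 14 nuclear antisense RNAs, and in the scrambled input for 11 of 14. Of the 8 cytoplasmic ones it was above the others for 3 and 4. The same held for 85 and 79 of all 142 antisense RNAs tested, 59.9% and 55.6%, and for 42.9% and 40.3% of all genes tested. Among nuclear genes of all kinds the shares were 52% and 41.4%, and among cytoplasmic genes of all kinds 49.3% and 50.1%. In the scrambled pulldown replicate 4 was the highest for 4 of the 14 and the lowest for 4. Within replicates 1 to 3, the log2 change of scrambled pulldown over input was 7.81 for Dnm3os and 6.70 for 4632427E13Rik (edgeR adjusted p = 2.29e-07 and 2.53e-07). These p-values count replicate 3 as a separate library, whose independence was not tested.

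**Figure D4:**
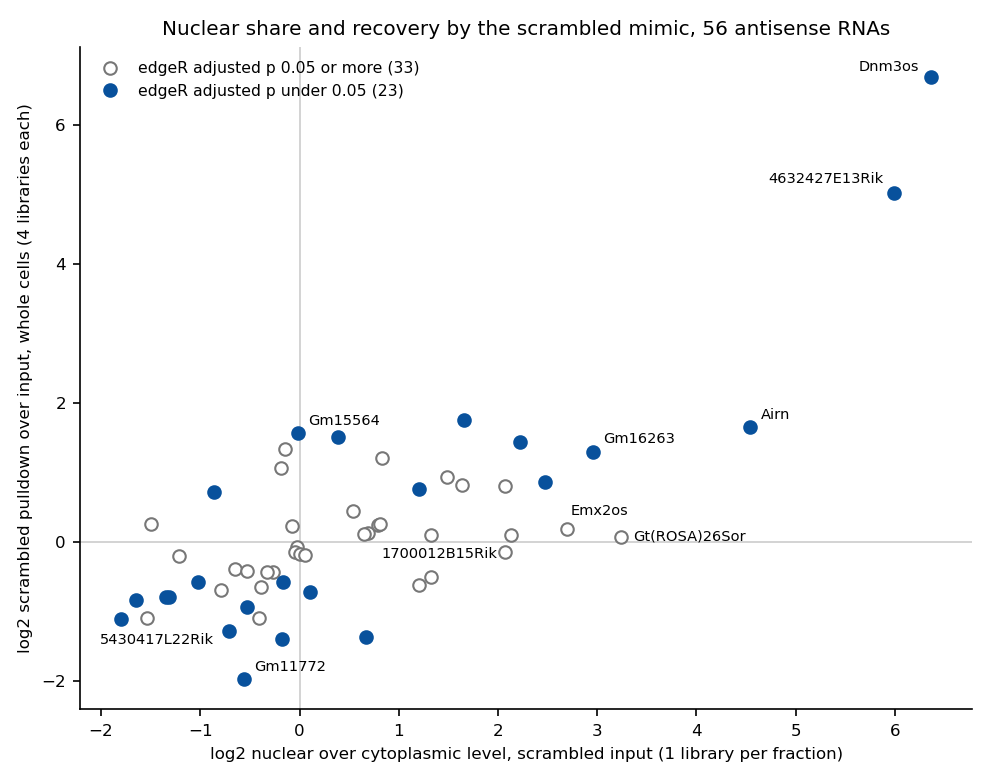
Each point is 1 of 56 antisense RNAs, with the log2 nuclear over cytoplasmic ratio of the scrambled input (1 library per fraction) on the horizontal axis and the log2 change of scrambled pulldown over input in whole cells on the vertical axis, filled where the edgeR adjusted p was under 0.05. Dnm3os and 4632427E13Rik lie at the upper right, at ratios of 6.37 and 5.99 and changes of 6.69 and 5.02.

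Fraction pulldowns gave a further value for Dnm3os. In the cytoplasm the miR-29b pulldown held 5890 counts of it and the scrambled pulldown 197, from library totals of 13089530 and 5320421. After scaling and correction for input the cytoplasmic log2 enrichment with miR-29b was 3.51, while in the nucleus it was −0.08, from 4652 and 2996 counts. Gt(ROSA)26Sor was similar, at 2.28 in the cytoplasm and −0.35 in the nucleus. The likewise nuclear 4632427E13Rik and Airn were at 1.15 and 0.75 in the cytoplasm and at −0.36 and −0.21 in the nucleus. Malat1 and Neat1 were at −0.71 and −0.20 in the cytoplasm, and the targets Mcl1 and Col1a1 at 2.77 and 1.92. The cytoplasmic median of the 56 antisense RNAs was 0.19 and that of all genes 0.04. Rab10os stood at 0.94 in the cytoplasm and 0.84 in the nucleus. Gm15564 was at opposite ends, with −4.05 in the cytoplasm, from 34 counts with miR-29b and 332 with the scrambled mimic, and 2.40 in the nucleus, from 174 and 113. Its nuclear inputs were uneven, at 71 counts with miR-29b and 310 with the scrambled mimic. In whole cells the mimic-specific change of Dnm3os had the opposite sign to the cytoplasmic one, with a log2 change of −3.57 ± 1.44 SE that did not pass (edgeR adjusted p = 0.0821). These single libraries carry no replicate error.

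A partner gene was found for 83 antisense RNAs. It was the gene the RNA is named after, or else a gene on the other strand that overlaps it or starts within 1 kb. For 32 the name alone was used, without a check of strand or position, as for Brip1os and Brip1. In 64 pairs both were tested, 25 of them paired by name. In the mimic-specific comparison the partner alone was called in 22 pairs, the antisense RNA alone in 4 and both in 3, of which 2 went the same way. The log2 changes across pairs had Pearson's r = −0.08 and Spearman's rho = −0.03, a description without a test since all pairs share the same libraries. In the direct comparison of pulldowns both were called in 8 pairs, 4 the same way and 4 opposite, and over scrambled pulldown and input in 11, 6 the same way and 5 opposite. The antisense RNA and its partner thus did not move together as a rule. Between inputs, where no member of any pair was called, r was 0.48 and rho 0.23.

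Rab10 and Zfp335 went the opposite way to their antisense RNAs between the pulldowns. Rab10 stood at 91.6, 77.9, 83.2 and 74.4 CPM in the miR-29b pulldown and 69.0, 147, 133 and 123 CPM in the scrambled one, a log2 change of −0.53 ± 0.21 SE (edgeR adjusted p = 0.0477). These groups overlapped, and in the mimic-specific comparison Rab10 was not called (log2 −0.50 ± 0.29 SE, edgeR adjusted p = 0.227). Zfp335 held 3.66, 6.15, 5.13 and 3.92 CPM in the miR-29b pulldown against 13.0, 16.1, 15.8 and 15.3 CPM. In the mimic-specific comparison Zfp335 was lower (log2 −1.46 ± 0.25 SE, edgeR adjusted p = 0.000561), where Zfp335os was higher. Rbm3 likewise was lower between the pulldowns, at 69.0, 35.8, 52.2 and 35.1 CPM with miR-29b against 69.3, 79.7, 75.8 and 76.3 CPM (log2 −0.65 ± 0.21 SE, edgeR adjusted p = 0.0197), where Rbm3os was higher. In the mimic-specific comparison Emx2 and Emx2os rose together, Emx2 by a log2 change of 0.80 (edgeR adjusted p = 0.0444). Gpank1 and Gm20522 fell together there, Gpank1 at −1.50 (edgeR adjusted p = 0.000431). Sp3 was not called while Sp3os was lower (edgeR adjusted p = 0.59 for Sp3).

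The reverse case was Ccnyl1, a cyclin Y-like gene marked as a hit and with a predicted site in the authors' table. In the mimic-specific comparison it rose by 3.15 ± 0.40 SE on the log2 scale (edgeR adjusted p = 3.7e-05). Its levels were 1011, 1065, 1049 and 1212 CPM in the miR-29b pulldown against 67.6, 131, 127 and 122 CPM in the scrambled one. The antisense RNA 2810408I11Rik, whose start lies within 1 kb of that of Ccnyl1 on the other strand, held 11.5, 9.61, 11.1 and 19.1 CPM against 14.6, 19.1, 20.7 and 18.8 CPM. It was not called there (edgeR adjusted p = 0.598).

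With the scrambled mimic, Airn and Igf2r rose together over input, Igf2r with a log2 change of 1.39 (edgeR adjusted p = 1.4e-05), as did Dnm3os and Dnm3, the latter by 2.28 (edgeR adjusted p = 0.0101). Phtf1os rose where Phtf1 fell by 0.93 (edgeR adjusted p = 0.000389). Gm9828 rose where Btf3 fell by 1.24 (edgeR adjusted p = 3.6e-05). Hoxd3os1 fell where Hoxd3 rose by 1.82 (edgeR adjusted p = 8.8e-05). Gm11772 fell (log2 −1.97 ± 0.52 SE, edgeR adjusted p = 0.00841) where Bahcc1 rose by 1.08 ± 0.41 SE (edgeR adjusted p = 0.0498, at the threshold). In these 4 pairs the antisense RNA and its partner moved apart.

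**Figure D5:**
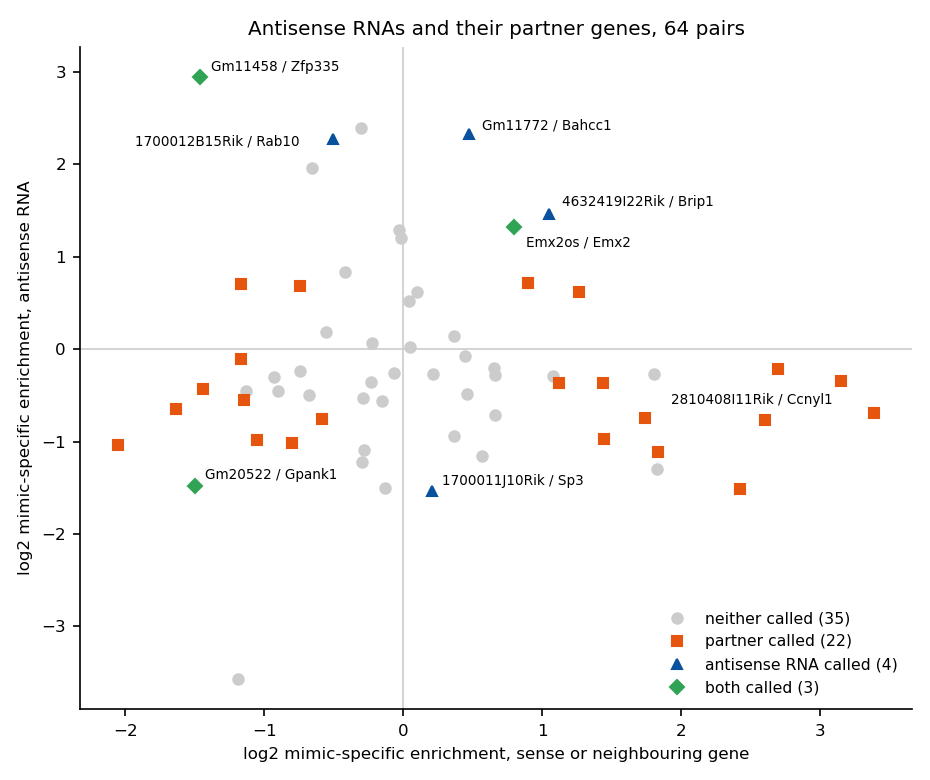
Each point is 1 of 64 pairs, with the log2 mimic-specific change of the partner gene on the horizontal axis and that of the antisense RNA on the vertical axis, and the marker shows which of the pair was called by edgeR at an adjusted p under 0.05. Both were called in 3 pairs, the partner alone in 22 and the antisense RNA alone in 4, and r over the pairs was −0.08.

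The last comparison asks whether the mimic changed the level of these RNAs in the cells. Between the inputs of the mimics none of the 142 antisense RNAs was called higher and none lower by edgeR, where 0.0542% of all genes were higher and 0% lower. At an unadjusted p under 0.05 there were 7, and DESeq2 called none either. The median log2 change was 0.13, with 0.02 for all genes. Levels of the RNAs marked as hits overlapped between the inputs, Rab10os at 9.21 ± 7.02 and 7.21 ± 1.20 CPM (SD, n = 4), Zfp335os at 1.04 ± 0.949 and 0.927 ± 0.290 CPM and Gm26982 at 1.57 ± 0.999 and 1.53 ± 0.386 CPM, with miR-29b and the scrambled mimic.

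The authors' own marks were made from the same libraries and are no independent evidence. Of the 183 antisense RNAs 3 are marked as hits in the authors' deposited table, 1.64%, against 567 of all genes, 4.19%. By the column names 3 were significant in all lysed replicates, 1.64% against 5.05% of all genes. In at least 1 of them 8 were, 4.37% against 9.19%, and in the intact one 9, 4.92% against 7.23%. None carries a mark for a predicted miR-29 site. Whether antisense RNAs were searched for such sites is not stated in the sources used here, and their sequences were not searched here. The missing mark therefore does not show that they lack a site.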

How the data were processed

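NIH3T3 RNA was measured by RNA-seq in 16 whole-cell and 8 fraction libraries. Reads were aligned with STAR 2.3.0 to build mm10, per the submitters' processing notes. The authors deposited whole-number counts per annotated gene, CPM values (count plus 1 scaled to their own library totals), a pulldown enrichment score whose formula was not recovered and which is not printed, and TRUE or FALSE marks. How reads were counted, and whether by strand, is not given in the sources used here. Both tables for the fractions were identical, with 0 bytes differing, so 1 was used.

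Of 14052 table lines, 518 repeated a gene and were dropped. Deposited counts were fitted with edgeR 4.0.16 (R 4.3.3), TMM factors, filterByExpr and the quasi-likelihood test over all 16 libraries, with Benjamini-Hochberg adjustment over 12915 genes. The 4 comparisons were pulldown over input with miR-29b against the same with the scrambled mimic (mimic-specific), pulldown between mimics, scrambled pulldown over input, and input between mimics. CPM printed here use TMM library sizes. Fractions had 1 library per group and no test; log2 ratios used a prior count of 5 on genes with at least 20 counts. Scripts were tested on simulated data. No column was left unmatched to a sample.

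Named RNAs were, per comparison, the 6 highest and 6 lowest called changes with at least 1 CPM in the higher group, the 10 highest mean levels and antisense RNAs known by name. Gm11772, Gm16536, Gm17035, Gm20522 and Hotair were named after their values were seen. Members and lists were chosen with earlier results of these data known. Alternatives were RLE, upper-quartile and authors' library totals, DESeq2 1.42.0, testing unfiltered genes or those with 2 CPM in 4 libraries, a replicate block, a fit of only the groups compared, replicates 1 to 3, 10 libraries, each library left out, and, for fractions, other prior counts, totals and minimums. Replicate numbers come from the labels, and whether they pair the libraries is given with the alternatives.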

Additional observations from a re-analysis of the deposited data

Results flagged for a closer look

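Among the named antisense RNAs, 25 groups of 4 libraries held 1 library whose gap to the nearest other, divided by the range of the group, was above Dixon's 95% critical value for 4 samples. Chance alone flags about 1 in 20 groups. Most of these libraries, 18 of the 25, were replicate 4 of an input.

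In the miR-29b input, replicate 4 was the high library for Dnm3os at 13.04 CPM, Rab10os (1700012B15Rik) at 19.71 CPM, 4632427E13Rik at 4.227 CPM, Zfp335os (Gm11458) at 2.464 CPM, Airn at 3.527 CPM, Rbm3os (2900002K06Rik) at 1.854 CPM, 6330562C20Rik at 1.356 CPM, B930036N10Rik at 1.402 CPM, Gm15050 at 10.13 CPM and 2810408I11Rik at 48.92 CPM.

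In the scrambled input, replicate 4 was the high library for Dnm3os at 1.018 CPM, 4632427E13Rik at 1.943 CPM, Hoxb5os (0610040B09Rik) at 30.17 CPM, Gm15708 at 2.283 CPM, Emx2os at 3.362 CPM, Gm15050 at 6.693 CPM and 2810408I11Rik at 51.11 CPM. It was the low library for A930015D03Rik, at 7.927 CPM against 41.2 to 45.3 CPM in the others.

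In the miR-29b pulldown, replicate 4 stood apart for B930036N10Rik at 3.917 CPM, for A930015D03Rik at 47.31 CPM against 82.4 to 88.4 CPM, and for Hotair, which had no count there (0.0 CPM) and 0.216 to 0.237 CPM in the others. In the scrambled pulldown, replicate 1, the shallowest library, was high for 4632427E13Rik at 32.45 CPM, Hoxb3os at 3.0 CPM and Gm15708 at 1.909 CPM, and replicate 3 was low for Hotairm1 (Gm15051) at 1.288 CPM.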

How the results depend on the processing

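The counts of called antisense RNAs moved more with the libraries used than with the tool. The shares of all genes called moved with the settings too, as given above for most of them. Against 8 higher and 4 lower in the mimic-specific comparison, replicates 1 to 3 gave 14 and 16, the 10 libraries 3 and 2, upper-quartile factors 12 lower, a filter of 2 CPM 2 lower and the replicate block 10 lower, and leaving out 1 library gave 7 to 13 higher and 2 to 14 lower. Between pulldowns, against 13 and 16, upper-quartile factors gave 31 lower, the authors' totals 4 lower, the 2 CPM filter 7 and 3, replicates 1 to 3 32 lower and the 10 libraries 6 and 2, and leaving out 1 library gave 10 to 14 higher and 6 to 23 lower. For scrambled pulldown over input, against 29 and 13, the 2 CPM filter gave 10 higher and the 10 libraries 6 and 2, and leaving out 1 library gave 17 to 32 higher and 7 to 15 lower. The input comparison stayed at 0 in every setting. Listed totals gave 23 nuclear and 1 cytoplasmic antisense RNA against 14 and 8, with 36.3% and 11.2% of all genes against 21.6% and 22.2%. The cause of these shifts was not tested; the 10 libraries and the 2 CPM filter leave fewer samples and fewer genes.

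Of 56 calls of named RNAs none changed direction in any setting. DESeq2 and no filter kept 56, RLE factors 54, upper-quartile factors 52, replicates 1 to 3 52 of 55, the authors' totals 43 and the 10 libraries 20. A fit on only the groups compared kept 37 of 41, with no value for the mimic-specific comparison, which uses all groups.

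Same-numbered libraries deviated together between the inputs (correlations of 0.51 to 0.72) and between either input and the miR-29b pulldown (0.33 to 0.70), but less evenly with the scrambled pulldown (−0.10 to 0.37), where replicates 1 and 4 were above 0.1 with each other group and replicate 3 below 0 with each, so not every pair passed 0.1. With the replicate block there were 10 higher and 10 lower in the mimic-specific comparison, 13 and 21 between pulldowns, 35 and 12 for scrambled pulldown over input and 0 and 0 between inputs, and 54 of the 56 named calls were kept, without Hotair and Hotairm1.

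Depth limits the low RNAs: 41 of 183 were not tested, and the median level of 0.566 CPM is a few reads in the shallowest library. Fractions have no replicate.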
